A study of Xenopus tropicalis with 15 samples.

Results

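Genes that mark granulocytes, macrophages and their common lineage were followed in regenerating tadpole tails. The set was 10 symbols chosen by name (csf1r, csf3r, mpo, spi1, ptprc, lcp1, coro1a, marco, cebpa and rac2), and a gene model counted as a member when its annotated symbol was one of them. A single model was found for each of 9 symbols, so the set is 9 of 34192 gene models; none was found for marco, which is not analysed here. All 9 models passed the filter on low counts, among 18823 that did.

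The study asked how tail regeneration in Xenopus tropicalis, a diploid frog, responds to antagonists of hypoxia and Wnt signalling. Total RNA of 15 samples was sequenced, 3 in each of 5 groups of wild-type tadpoles. Each animal had lost the rear of its tail at NF stage 41, 3 days after fertilisation, and was kept at 23 °C in Ringer's medium. The regenerating tissue of 24 hours post amputation (hpa), about 250 µm of it, came from tadpoles kept in 5 µM 2-methoxyestradiol (2ME), 0.5 µM echinomycin, 10 µM IWR-1 or 0.1% DMSO. The 0 hpa group was untreated and consists of about 250 µm of tail in front of the cut, so 24 hpa DMSO and 0 hpa tissue differ in time, position along the tail and exposure to DMSO together, which cannot be told apart. 2ME derives from oestradiol, disrupts microtubules and reduces the HIF1A protein. The antibiotic echinomycin binds DNA and competes with HIF1 there, and IWR-1 blocks tankyrase, which leaves more Axin to restrain Wnt signalling. The number after IWR in the treatment labels counts upward with the replicate, but the design text names IWR-1 alone, and all 3 samples were taken as IWR-1. The labels do not say whether a sample is 1 animal or a pool, or what a replicate number stands for, so the p-values reflect only how far these samples spread.

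Myeloid cells are the granulocytes, monocytes and macrophages that descend from a shared blood progenitor. The transcription factors PU.1 (spi1) and C/EBPα (cebpa) set up that lineage in mammals, and the receptors for the cytokines CSF1 and CSF3 then sustain macrophages and neutrophils. Both cell types gather at cut tail tips of fish and frog larvae, where they clear debris and microbes.

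Library totals were 17297773 to 23377789 estimated counts in all. A count of 0 thus allowed up to 0.128 to 0.173 counts per 1000000 of the library total, the level of 3 counts (counting error only). CPM here means counts per 1000000 after TMM scaling, a correction for the make-up of each library, and serves for 1 gene across groups. The level that a count of 0 allows leaves out the TMM factors, which were 0.909 to 1.07. TPM, which also divides by transcript length, serves for different genes. The members held 48 (coro1a) to 3270 (mpo) counts per library. The counts of csf3r, mpo, spi1, lcp1, coro1a and rac2 were whole in all 15 libraries, while those of csf1r and ptprc were fractional in 15 and those of cebpa in 8, which means that some of their reads were shared out among several models. Errors are the SE for log2 ratios and the SD for levels, with n = 3 in every group. A gene is called changed at an adjusted p under 0.05 in edgeR's quasi-likelihood test, with Benjamini-Hochberg adjustment over all 18823 models.

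The summed level of the 9 members followed the groups without overlap. It was 188 to 202 CPM with 2ME, 451 to 554 CPM with echinomycin and 366 to 380.5 CPM with IWR-1, against 336 to 358 CPM with DMSO and 117 to 127 CPM at 0 hpa. In bulk tissue, more myeloid cells and more RNA per myeloid cell cannot be told apart. Per length, mpo had 57.7 ± 2.62 TPM with DMSO, rac2 38.8 ± 1.64 TPM, lcp1 21.1 ± 1.62 TPM and csf1r 12.5 ± 1.16 TPM, and these levels did not overlap between neighbours. The mean TPM of coro1a was larger (75.2 with DMSO), but its model is only 282 bases long, with an effective length of 104 to 112 bases, so that level is uncertain. The levels of cebpa (6.53 ± 0.270 TPM), csf3r (5.66 ± 0.612 TPM) and spi1 (4.88 ± 0.548 TPM) overlapped from one to the next, and ptprc was lowest with DMSO (3.60 ± 0.459 TPM). At 0 hpa the lowest member was csf3r (1.30 ± 0.0426 TPM), and mpo and rac2 overlapped.

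**Figure D1:**
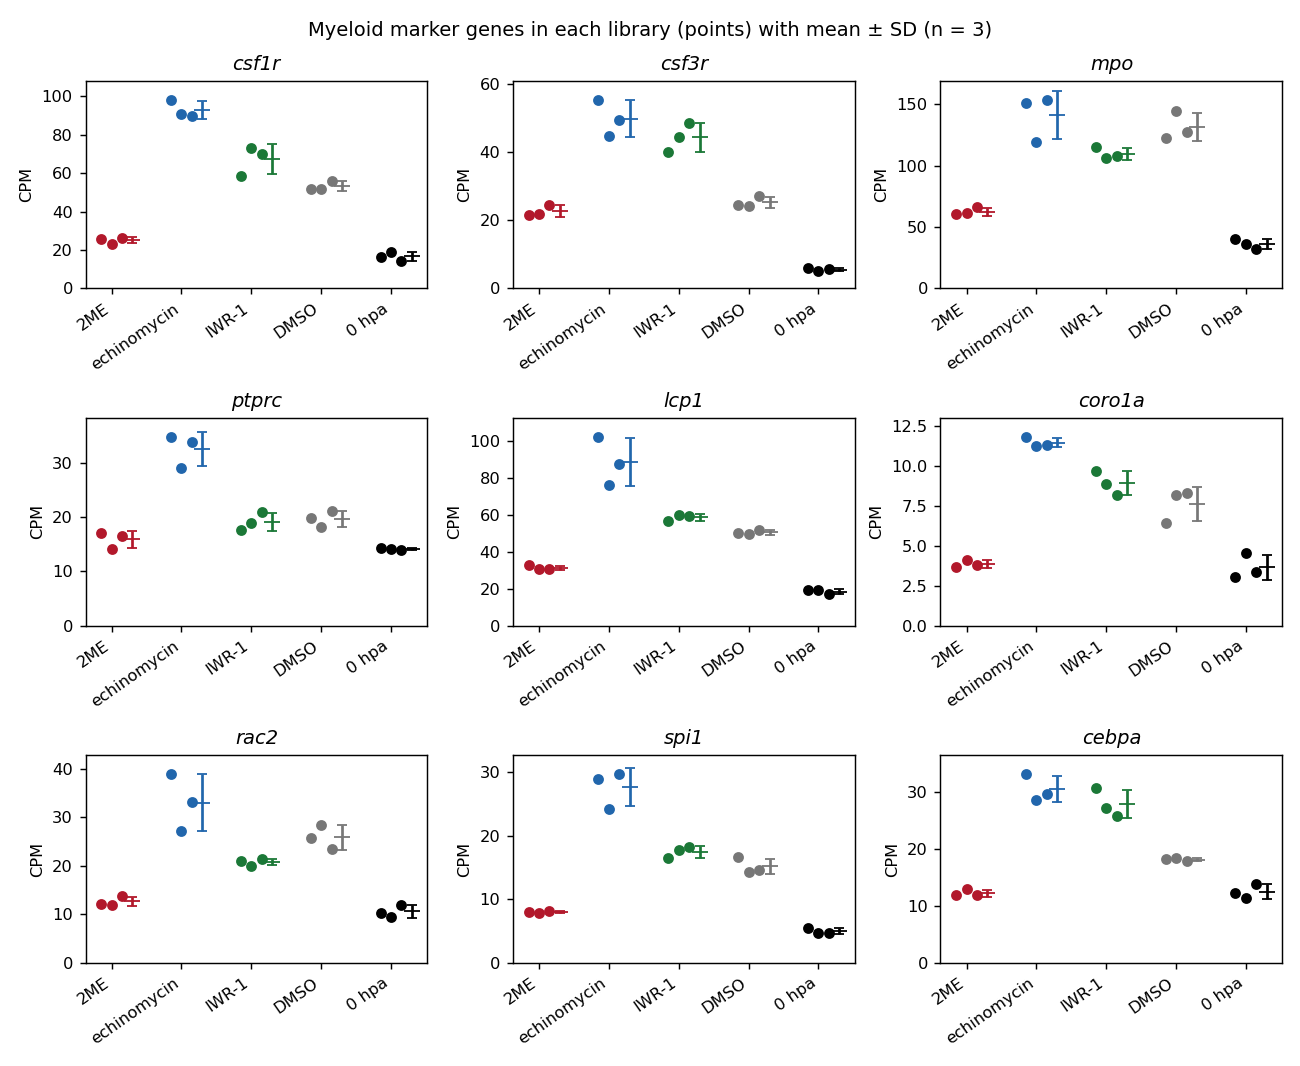
Level of each marker gene (CPM, vertical axes from 0) in each of the 15 libraries, as points in 5 groups, with mean and SD (n = 3) beside them. The echinomycin libraries hold the highest mean of all 9 genes; the 0 hpa libraries hold the lowest of 8, and 2ME that of cebpa.

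The receptor gene csf1r encodes the receptor for CSF1 and IL34, on which macrophages depend. It had 25.6, 23.2 and 26.2 CPM with 2ME, 98.1, 90.6 and 89.7 CPM with echinomycin, 58.7, 73.2 and 70.1 CPM with IWR-1, against 51.9, 51.8 and 56.1 CPM with DMSO and 16.6, 18.8 and 14.5 CPM at 0 hpa. No 2 groups overlapped, and each neighbour in the order echinomycin, IWR-1, DMSO, 2ME, 0 hpa differed by the test. csf3r encodes the receptor for granulocyte colony-stimulating factor, on which neutrophils depend. It had 21.5, 21.9 and 24.6 CPM with 2ME, 55.4, 44.8 and 49.5 CPM with echinomycin, 40.0, 44.6 and 48.5 CPM with IWR-1, against 24.6, 24.2 and 27.0 CPM with DMSO and 5.92, 4.99 and 5.72 CPM at 0 hpa. Echinomycin overlapped IWR-1, 2ME overlapped DMSO, and 0 hpa lay below all the others. ptprc encodes CD45, a phosphatase on the surface of all leukocytes. It had 17.0, 14.1 and 16.5 CPM with 2ME, 34.7, 29.0 and 33.8 CPM with echinomycin, 17.5, 18.8 and 20.9 CPM with IWR-1, against 19.8, 18.09 and 21.1 CPM with DMSO and 14.2, 14.0 and 13.9 CPM at 0 hpa. Echinomycin lay above every other group, IWR-1 overlapped DMSO, and 2ME overlapped 0 hpa.

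mpo encodes myeloperoxidase, the enzyme of neutrophil granules that makes hypochlorous acid. It had 60.3, 61.2 and 66.2 CPM with 2ME, 151, 119 and 153 CPM with echinomycin, 115, 106 and 108 CPM with IWR-1, against 122, 145 and 127 CPM with DMSO and 39.9, 36.5 and 32.4 CPM at 0 hpa. Echinomycin replicate 2 lay below all 3 DMSO libraries while the other 2 echinomycin libraries lay above them, and the IWR-1, 2ME and 0 hpa groups followed without overlap.

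The transcription factor gene spi1 (PU.1) is needed for macrophages and granulocytes alike. It had 7.99, 7.75 and 8.15 CPM with 2ME, 29.0, 24.2 and 29.7 CPM with echinomycin, 16.4, 17.8 and 18.2 CPM with IWR-1, against 16.6, 14.3 and 14.7 CPM with DMSO and 5.53, 4.67 and 4.69 CPM at 0 hpa. The IWR-1 and DMSO groups overlapped and the others stood apart. cebpa encodes C/EBPα, needed for granulocytes in mice, and is also known from liver, fat and skin. It had 12.0, 13.0 and 11.8 CPM with 2ME, 33.2, 28.7 and 29.8 CPM with echinomycin, 30.7, 27.3 and 25.9 CPM with IWR-1, against 18.3, 18.4 and 17.8 CPM with DMSO and 12.2, 11.4 and 13.9 CPM at 0 hpa. Echinomycin overlapped IWR-1, 2ME overlapped 0 hpa, and DMSO lay between these pairs.

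The remaining members act on the actin cytoskeleton of leukocytes. lcp1 encodes L-plastin, which bundles actin filaments. It had 32.6, 30.6 and 30.7 CPM with 2ME, 102, 76.2 and 87.6 CPM with echinomycin, 56.6, 59.7 and 59.6 CPM with IWR-1, against 50.0, 49.5 and 51.9 CPM with DMSO and 19.1, 19.2 and 17.0 CPM at 0 hpa. No 2 groups overlapped. coro1a encodes coronin 1A, an actin-binding protein of leukocytes. It had 3.64, 4.10 and 3.81 CPM with 2ME, 11.8, 11.2 and 11.3 CPM with echinomycin, 9.69, 8.86 and 8.17 CPM with IWR-1, against 6.41, 8.18 and 8.29 CPM with DMSO and 3.05, 4.51 and 3.35 CPM at 0 hpa. IWR-1 overlapped DMSO and 2ME overlapped 0 hpa. rac2 encodes the blood-cell GTPase that drives neutrophil migration and is a subunit of the phagocyte NADPH oxidase. It had 12.2, 11.9 and 13.8 CPM with 2ME, 38.9, 27.1 and 33.1 CPM with echinomycin, 21.0, 20.0 and 21.3 CPM with IWR-1, against 25.7, 28.4 and 23.4 CPM with DMSO and 10.3, 9.44 and 12.0 CPM at 0 hpa. Echinomycin overlapped DMSO, 2ME overlapped 0 hpa, and IWR-1 stood between.

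Regenerating tissue of 24 hpa with DMSO was compared with tail tissue of 0 hpa. All 9 markers were higher in the regenerating tissue, where 32.2% of all models were called higher. Of these, 7 were higher by 2-fold or more, as were 8.77% of all models, and the groups did not overlap for any of the 9, as for 66.8% of all models. The largest log2 ratio was that of csf3r, 2.19 ± 0.11 (adjusted p = 6.63e-11), a 4.57-fold difference. It was followed by mpo at 1.86 ± 0.10 (adjusted p = 8.87e-11) and csf1r at 1.68 ± 0.10 (adjusted p = 2.44e-10). The factor spi1 stood at 1.61 ± 0.11 (adjusted p = 2.38e-09) and the actin bundler lcp1 at 1.45 ± 0.09 (adjusted p = 6.01e-10). rac2 differed by 1.29 ± 0.13 (adjusted p = 1.64e-07) and coro1a by 1.06 ± 0.15 (adjusted p = 9.97e-06). The smallest differences were those of cebpa, 0.54 ± 0.10 (adjusted p = 0.000116), and ptprc, 0.48 ± 0.10 (adjusted p = 0.000554), both under 2-fold. The median log2 ratio of the members was 1.45, against 0.00135 over all models tested.

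Among other genes of these cells, most granulocyte genes moved up: 12 of 16 tested rose, 1 fell and 3 passed in neither direction (median log2 ratio 1.77). Over all models, 32.2% were called higher, and the share called lower is not given here. Eosinophil peroxidase (epx) had a log2 ratio of 1.82 ± 0.11, and the oxidase subunits cyba and cybb had 1.78 ± 0.11 and 1.76 ± 0.13. The collagenase mmp8 had 0 counts in all 3 libraries at 0 hpa and 11.2 ± 2.97 CPM with DMSO. The gene that fell was gfi1b, at -3.25 (adjusted p = 9.00e-06), named after its values were seen and known for its role in red cells and platelets. The macrophage list was split: 9 of 20 tested rose, 9 fell and 2 passed in neither direction (median log2 ratio 0.25). Its summed level was 5399 to 6032 CPM with DMSO against 7352.7 to 7726.5 CPM at 0 hpa. Most of the sum with DMSO came from the lipoprotein genes apoe (3764 ± 241 CPM) and apoc1 (1213 ± 166 CPM), named after their values were seen. The sum thus says little about the other genes of the list. The protease genes lgmn and ctss had log2 ratios of 1.18 ± 0.06 and 1.74 ± 0.10, the factor mafb 1.24 ± 0.07, and gpnmb, a glycoprotein of phagocytes and pigment cells, 3.56 ± 0.23. Among the falls, named after their values were seen, were mrc1, the mannose receptor of macrophages and some endothelium, at -1.25 (adjusted p = 2.23e-08), and the lipoprotein gene apoe at -0.67 (adjusted p = 1.22e-06). Of the pan-leukocyte genes, 22 of 33 tested rose, 7 fell and 4 passed in neither direction (median log2 ratio 0.98). Examples are lsp1 at 1.97 ± 0.08, arhgdib at 1.52 ± 0.10, the phosphatase gene ptpn6 at 0.98 ± 0.08 and the adhesion receptor gene cd44, which other tissues also use, at -2.13 ± 0.15. All 11 log2 ratios named for these lists by rule had an adjusted p of at most 8.86e-09.

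Of the myeloid transcription factors, 11 of 22 tested rose, 7 fell and 4 passed in neither direction (median log2 ratio 0.54). The smallest adjusted p belonged to 4 of them. The factor runx1 had a log2 ratio of 2.68 ± 0.18, bcl6 2.18 ± 0.10, cebpd 1.53 ± 0.09 and fli1, also an endothelial factor, -1.88 ± 0.13. Of the partners of Rac2, 6 of 13 tested rose, 5 fell and 2 passed in neither direction (median log2 ratio 0.12). Examples are pak1 at 0.86 ± 0.05, vav2 at 1.22 ± 0.09, arhgdia at 0.71 ± 0.06 and vav3 at -1.43 ± 0.13. The ligand gene csf1 rose (0.84 ± 0.13, adjusted p = 1.89e-05) to 10.3 ± 0.493 CPM with DMSO, against 5.76 ± 0.691 CPM at 0 hpa. The second CSF1R ligand, il34, had 0.656 ± 0.281 CPM with DMSO and 1.06 ± 0.606 CPM at 0 hpa (adjusted p = 0.203). The mean of csf3 was 0.0160 ± 0.0278 CPM with DMSO and 0.102 ± 0.0774 CPM at 0 hpa, below the level that a count of 0 allows.

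Markers of other cells moved in the same comparison. The share of all models called lower is not given, so the counts of falls are descriptions only. All 14 muscle genes fell, with a sum of 1714 to 2273 CPM with DMSO against 22554 to 25142 CPM at 0 hpa. All 15 erythroid genes fell, to 133 to 151 CPM in sum with DMSO, against 1948 to 7615 CPM at 0 hpa. Of the endothelial list 17 of 22 fell and 1 rose (247 to 275 CPM with DMSO against 496 to 513 CPM at 0 hpa), all 12 pigment cell genes fell (426 to 458 against 1138 to 1229.9 CPM), and of 16 epidermal genes 10 rose and 5 fell (14565 to 14783 against 12315 to 14034 CPM). Their part in the rise of the myeloid markers was not tested. Of 17 lymphocyte models, 9 were tested and 5 of them rose, none fell, and the summed level was 95.0 to 105 CPM with DMSO against 67.3 to 80.0 CPM at 0 hpa. The named genes of that list were blnk (0.56 ± 0.08), a B-cell adaptor also expressed elsewhere, and the T and NK cell genes zap70 (1.13 ± 0.29) and prf1 (0.95 ± 0.27), with adjusted p of at most 0.00538. The T-cell receptor subunit gene cd3e was also called higher (adjusted p = 0.000107), at 0.857 ± 0.316 CPM with DMSO and 0.0785 ± 0.0939 CPM at 0 hpa, the second below the level that a count of 0 allows. Most of the sum came from blnk and from gata3, named after its values were seen (43.1 ± 1.21 and 44.3 ± 4.92 CPM with DMSO). The 8 models too low to test are also named after their values were seen: cd8a was at 0 in all 15 libraries, and cd79a, cd79b, pax5, rag1, rag2, cd3g and eomes had group means of at most 0.721 CPM (rag2 at 0 hpa).

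**Figure D2:**
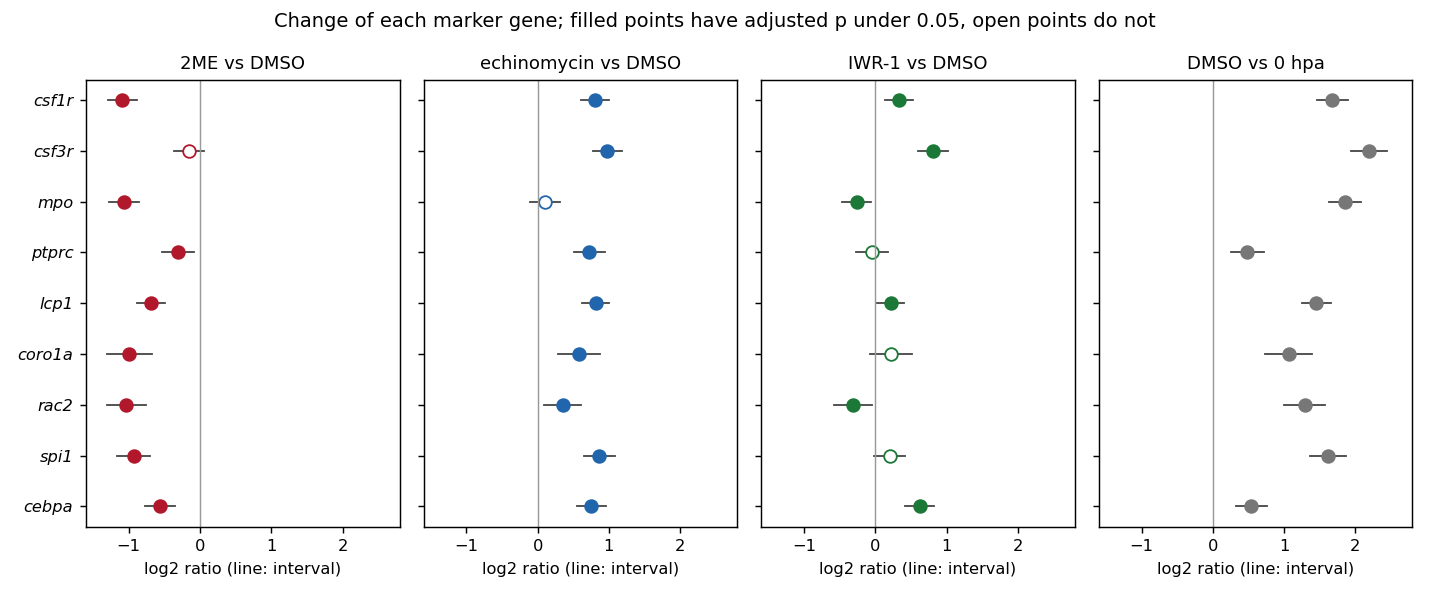
Log2 ratio of each marker gene (horizontal axes) in 4 comparisons, with its 95% interval as a line; filled points passed the test and open points did not. All 9 points are filled on the right of 0 for DMSO vs 0 hpa; csf3r is open for 2ME, mpo for echinomycin, and ptprc, coro1a and spi1 for IWR-1.

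The comparisons of each compound with DMSO ask what differs with an antagonist in regenerating tissue of the same age, and they share the 3 DMSO libraries. A DMSO percentage is recorded for the DMSO group alone, so whether the compounds came in the same vehicle is not known here. With 2ME, 8 of the 9 markers fell and none rose, where 16.5% of all models were called lower. Of these, csf1r, mpo and rac2 fell by 2-fold or more, as did 2.19% of all models. The exception was csf3r. The groups did not overlap for the 8 called genes, as for 45.3% of all models. The log2 ratio of csf1r was -1.09 ± 0.09 (adjusted p = 6.38e-07), that of mpo -1.07 ± 0.09 (adjusted p = 9.46e-07) and that of rac2 -1.03 ± 0.12 (adjusted p = 1.92e-05). coro1a differed by -0.99 ± 0.14 (adjusted p = 0.000121) and spi1 by -0.93 ± 0.10 (adjusted p = 1.12e-05). The falls of lcp1, -0.69 ± 0.09 (adjusted p = 3.12e-05), and cebpa, -0.56 ± 0.09 (adjusted p = 0.000391), were smaller. The granulocyte receptor csf3r had 22.7 ± 1.71 CPM with 2ME and 25.3 ± 1.54 CPM with DMSO, a log2 ratio of -0.16 ± 0.10 (adjusted p = 0.229) with a 95% interval of -0.37 to 0.05. The median of the members was -0.93, against -0.0206 over all models.

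The call for ptprc was the weakest of these, -0.31 ± 0.10 (adjusted p = 0.0261). Its adjusted p was 0.125 without 2ME replicate 2, 0.0762 without DMSO replicate 1 and 0.118 without DMSO replicate 3, and with no scaling factor it was 0.240 at a log2 ratio of -0.17. With no scaling factor, the median log2 ratio over all models shifted up, by 0.14 for 2ME, 0.15 for echinomycin and 0.16 for IWR-1 against DMSO. Upper-quartile factors shifted the echinomycin median by 0.10.

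Other leukocyte genes fell with 2ME as well, where 16.5% of all models were called lower. Of the pan-leukocyte genes, 1 of 33 tested rose, 18 fell and 14 passed in neither direction (median log2 ratio -0.68), and with no scaling factor 2 rose and 14 fell. Examples are itgb7 at -1.42 ± 0.19, the adaptor gene fyb1 at -1.29 ± 0.12, arhgdib at -1.14 ± 0.10 and hcls1 at -0.93 ± 0.11. Of the macrophage genes, 1 of 20 tested rose, 13 fell and 6 passed in neither direction (median log2 ratio -0.48), and with no scaling factor 3 rose and 7 fell. The largest named fall there was gpnmb at -1.77 ± 0.18, then the lipid receptor gene trem2 at -1.55 ± 0.22 and apoe at -0.51 ± 0.08, while the receptor kinase gene axl rose by 0.57 ± 0.08. Of the granulocyte genes, 1 of 16 tested rose, 5 fell and 10 passed in neither direction (median log2 ratio -0.25), and with no scaling factor 2 rose and 4 fell. The 4 named were mmp8 at -1.39 ± 0.25, alox5, which makes leukotrienes, at -0.70 ± 0.16, cybb at -0.69 ± 0.12 and epx at -0.53 ± 0.10. The granulocyte gene that rose was il1r2, a decoy receptor for interleukin 1 named after its values were seen, at 0.63 (adjusted p = 0.00954). All adjusted p of the genes named by rule for these lists were at most 0.00321.

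Of the myeloid transcription factors, 3 of 22 tested rose, 4 fell and 15 passed in neither direction (median log2 ratio -0.12), but with no scaling factor 4 rose and 3 fell. The falls were near the share of all models called lower, 16.5%. The log2 ratio was 0.68 ± 0.14 for cebpb, 0.66 ± 0.14 for klf4, -0.59 ± 0.13 for spib and -0.74 ± 0.18 for zeb2, each with an adjusted p of at most 0.00662. Of the partners of Rac2, 2 of 13 tested rose, 2 fell and 9 passed in neither direction (median log2 ratio -0.01), but with no scaling factor 3 rose and 0 fell. The kinase gene pak2 (0.82 ± 0.14) and the Rac exchange factor gene tiam1 (0.37 ± 0.13) rose, and the GTPase genes rac1 (-0.21 ± 0.05) and cdc42 (-0.18 ± 0.05) fell, with adjusted p of at most 0.0337. The ligand gene csf1 did not pass the test, with 8.61 ± 0.702 CPM with 2ME and 10.3 ± 0.493 CPM with DMSO (adjusted p = 0.105). The call of csf3 (adjusted p = 0.0158) rests on 0.266 ± 0.128 CPM with 2ME and 0.0160 ± 0.0278 CPM with DMSO, the second below the level that a count of 0 allows. The mean of csf3 was highest with echinomycin, and it may have passed the filter on low counts only through those libraries. In the same comparison 12 of 14 muscle genes rose (2333 to 3806 CPM in sum with 2ME against 1714 to 2273 CPM with DMSO). Of the pigment cell genes 6 of 12 rose and 0 fell (490.4 to 494 against 426 to 458 CPM), where 7 rose with RLE factors, 8 with upper-quartile factors and 10 with no factor. Of the erythroid genes 2 of 15 rose and 0 fell, of the endothelial genes 2 of 22 rose and 2 fell, of the epidermal genes 6 of 16 rose and 5 fell and of the lymphocyte genes 2 of 9 rose and 2 fell; with no scaling factor the endothelial counts were 5 and 1 and the epidermal counts 8 and 3. The share of all models called higher with 2ME is not given, so these counts of rises are descriptions only. The part of these cells in the myeloid differences was not tested.

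With echinomycin, 8 of the 9 markers rose and none fell, where 24.6% of all models were called higher. None of the 8 reached 2-fold, which 8.83% of all models did. The groups did not overlap for 7, as for 57.2% of all models. The receptor csf3r had the largest log2 ratio, 0.98 ± 0.09 (adjusted p = 3.59e-07), a 1.97-fold difference. spi1 followed at 0.87 ± 0.10 (adjusted p = 1.92e-06), lcp1 at 0.81 ± 0.08 (adjusted p = 7.47e-07) and csf1r at 0.80 ± 0.09 (adjusted p = 1.51e-06). cebpa rose by 0.75 ± 0.09 (adjusted p = 3.85e-06), ptprc by 0.72 ± 0.10 (adjusted p = 1.10e-05) and coro1a by 0.58 ± 0.13 (adjusted p = 0.00156). The granule enzyme mpo did not pass the test, with 141 ± 19.3 CPM with echinomycin and 131 ± 11.7 CPM with DMSO, a log2 ratio of 0.10 ± 0.09 (adjusted p = 0.367) with an interval of -0.10 to 0.31. It was called without echinomycin replicate 2 (adjusted p = 0.0457 at 0.21) and with no scaling factor (adjusted p = 0.0231 at 0.25). The call for rac2, 0.35 ± 0.12 (adjusted p = 0.0176), was lost without echinomycin replicate 1 (adjusted p = 0.0910) or DMSO replicate 3 (0.0623). The median of the members was 0.75, against 0.0142 over all models.

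Most called genes of the wider lists rose too, where 24.6% of all models were called higher. Of the granulocyte genes, 11 of 16 tested rose, 2 fell and 3 passed in neither direction (median log2 ratio 0.74). Examples are ncf4, an oxidase subunit, at 1.32 ± 0.22, il1r2 at 1.29 ± 0.17, alox5 at 1.09 ± 0.15 and epx at 0.58 ± 0.10. The falls, named after their values were seen, were those of mmp8, -1.29 (adjusted p = 0.000497), and the oxidase subunit cyba, -0.34 (adjusted p = 0.0106); the cyba call was lost with upper-quartile factors (adjusted p = 0.0654) and with no scaling factor (0.110). Of the pan-leukocyte genes, 20 of 33 tested rose, 1 fell and 12 passed in neither direction (median log2 ratio 0.57). Examples are the integrin gene itgb2 at 1.31 ± 0.13, arhgap45 at 1.00 ± 0.16, hcls1 at 0.67 ± 0.11 and selplg at 0.47 ± 0.08. Of the macrophage genes, 10 of 20 tested rose, 2 fell and 8 passed in neither direction (median log2 ratio 0.31). Examples are mrc1 at 0.79 ± 0.11, csf2rb at 0.79 ± 0.13, axl at 0.72 ± 0.08 and apoc1 at -0.97 ± 0.11. All adjusted p of the genes named by rule for these 3 lists were at most 0.000148.

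Of the myeloid transcription factors, 6 of 22 tested rose, near the 24.6% of all models called higher. Another 6 fell and 10 passed in neither direction (median log2 ratio 0.13), and with no scaling factor 6 rose and 4 fell. Examples are klf4 at 1.18 ± 0.14, fli1 at 0.88 ± 0.13, id2 at -0.77 ± 0.08 and ikzf2 at -0.44 ± 0.06. Of the partners of Rac2, 5 of 13 tested rose, 4 fell and 4 passed in neither direction (median log2 ratio 0.02), and with no scaling factor 5 rose and 2 fell. Examples are rhog at 1.27 ± 0.11, vav3 at 1.11 ± 0.13, pak1 at -0.68 ± 0.05 and vav2 at -1.38 ± 0.09. All adjusted p of the genes named for both lists were at most 2.84e-05. The ligand gene csf1 rose (0.92 ± 0.11, adjusted p = 4.64e-06), with 19.6 ± 2.20 CPM with echinomycin and 10.3 ± 0.493 CPM with DMSO, and csf3 was also called, at 0.575 ± 0.104 CPM with echinomycin and 0.0160 ± 0.0278 CPM with DMSO. The csf3 mean with DMSO was below the level that a count of 0 allows. As its mean was highest with echinomycin, csf3 may have passed the filter on low counts only through those libraries. Its calls over DMSO with the 3 compounds are thus descriptions only. All 14 muscle genes rose as well (5339 to 6496 CPM against 1714 to 2273 CPM), and 18 of 22 endothelial genes rose and 1 fell (358 to 396 against 247 to 275 CPM). Of the pigment cell genes 9 of 12 rose and 0 fell (478 to 517 against 426 to 458 CPM), of the erythroid genes 4 of 15 rose and 1 fell, of the epidermal genes 3 of 16 rose and 6 fell and of the lymphocyte genes 3 of 9 rose and 1 fell; with no scaling factor the erythroid counts were 5 and 0 and the epidermal counts 4 and 4. The share of all models called lower with echinomycin is not given, so these counts of falls are descriptions only. The part of these cells was not tested.

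With IWR-1, 4 members rose, 2 fell and 3 did not pass the test, where 19.9% and 22.4% of all models were called higher and lower. The 2 falls were near the share of all models called lower, so they are no result about the set. Without DMSO replicate 2, IWR-1 replicate 2 or IWR-1 replicate 3 only 3 members were called, all higher. No member reached 2-fold, which 5.93% of all models did upward and 2.69% downward. The groups did not overlap for 6, as for 52.2% of all models. The rises were those of csf3r, 0.81 ± 0.09 (adjusted p = 4.87e-06), cebpa, 0.62 ± 0.09 (adjusted p = 4.58e-05), csf1r, 0.34 ± 0.09 (adjusted p = 0.00543), and lcp1, 0.22 ± 0.08 (adjusted p = 0.0457). mpo differed by -0.26 ± 0.09 (adjusted p = 0.0322) and rac2 by -0.31 ± 0.12 (adjusted p = 0.0429), both lower with IWR-1. Not called were spi1, 0.20 ± 0.10 (adjusted p = 0.106), coro1a, 0.22 ± 0.13 (adjusted p = 0.203), and ptprc, -0.04 ± 0.10 (adjusted p = 0.751) with an interval of -0.26 to 0.17. The median of the members was 0.22, against -0.0158 over all models.

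The smaller of these calls were lost without single libraries. The adjusted p of mpo became 0.193 without DMSO replicate 2, 0.102 without IWR-1 replicate 2 and 0.0877 without IWR-1 replicate 3. That of rac2 lay between 0.0740 and 0.202 without DMSO replicate 1, DMSO replicate 2 or any IWR-1 replicate, and that of lcp1 between 0.0516 and 0.117 for the same libraries. With no scaling factor, mpo (-0.10, adjusted p = 0.388) and rac2 (-0.15, 0.305) were not called, and spi1 (0.36, 0.00885) and coro1a (0.38, 0.0327) were.

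The list counts that follow stand beside 19.9% of all models called higher and 22.4% called lower. Of the granulocyte genes, 4 of 16 tested rose, 0 fell and 12 passed in neither direction (median log2 ratio 0.26). Those 4 were tnfaip6 (0.87 ± 0.12), il1r2 (1.11 ± 0.17), ncf4 (0.84 ± 0.22) and alox5 (0.48 ± 0.15). Of the macrophage genes, 5 of 20 tested rose, 2 fell and 13 passed in neither direction (median log2 ratio 0.17), and with no scaling factor 8 rose and 2 fell. Examples are axl at 0.78 ± 0.08, gpnmb at 0.43 ± 0.15, ctss at -0.49 ± 0.09 and apoc1 at -1.23 ± 0.11. Of the pan-leukocyte genes, 4 of 33 tested rose, 6 fell and 23 passed in neither direction (median log2 ratio 0.03), but with no scaling factor 6 rose and 4 fell. Examples are itgb2 at 0.52 ± 0.13, ptpn6 at -0.47 ± 0.07, arhgdib at -0.41 ± 0.09 and fyb1 at -0.38 ± 0.12, the last lost with no scaling factor (adjusted p = 0.138). Of the myeloid transcription factors, 5 of 22 tested rose, 2 fell and 15 passed in neither direction (median log2 ratio -0.09), and with no scaling factor 6 rose and 1 fell. Examples are klf4 at 0.90 ± 0.14, cebpb at 0.69 ± 0.14, ets1 at 0.56 ± 0.11 and etv6 at -0.47 ± 0.08. Of the partners of Rac2, 4 of 13 tested rose, 4 fell and 5 passed in neither direction (median log2 ratio 0.20). Of the same genes 6 rose and 3 fell with RLE factors, 6 and 2 with upper-quartile factors and 6 and 1 with no factor. Examples are pak2 at 0.89 ± 0.14, rhog at 0.83 ± 0.11, tiam1 at 0.68 ± 0.13 and vav2 at -0.75 ± 0.09. The largest adjusted p among the genes named for these 5 lists was 0.0353, that of gpnmb. Of the ligand genes, csf1 had 8.58 ± 0.833 CPM with IWR-1 and 10.3 ± 0.493 CPM with DMSO (adjusted p = 0.0830), and csf3 was called at 0.287 ± 0.244 CPM with IWR-1 and 0.0160 ± 0.0278 CPM with DMSO (adjusted p = 0.00853). Here too the csf3 mean with DMSO was below the level that a count of 0 allows, and the same limit on how csf3 passed the filter holds. All 14 muscle genes rose (4668 to 5324 CPM against 1714 to 2273 CPM). Of the endothelial genes 10 of 22 rose and 2 fell (287 to 324 against 247 to 275 CPM), of the erythroid genes 6 of 15 rose and 0 fell (247 to 358 against 133 to 151 CPM), of the epidermal genes 4 of 16 rose and 7 fell, of the pigment cell genes 4 of 12 rose and 1 fell and of the lymphocyte genes 2 of 9 rose and 1 fell. With no scaling factor these counts were 13 and 0, 9 and 0, 9 and 5, 4 and 0, and 2 and 0, in the same order. The part of these cells was not tested.

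**Figure D3:**
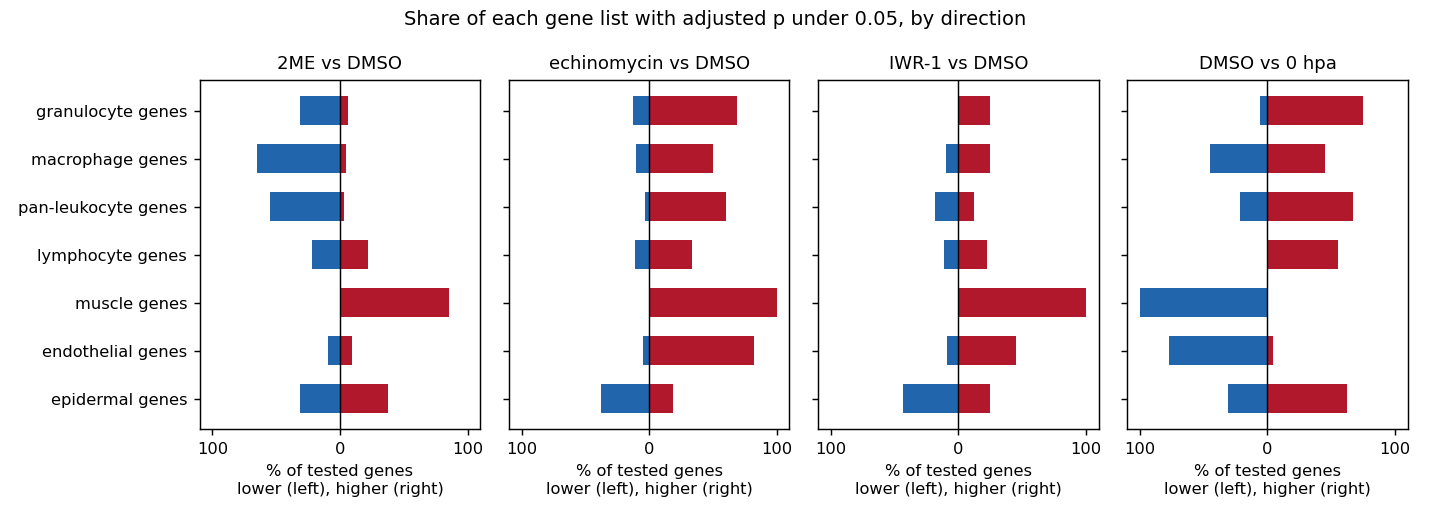
Percent of the tested genes of 7 lists that passed the test as higher (bars to the right) or lower (bars to the left) in 4 comparisons. With 2ME 18 of 33 pan-leukocyte genes were lower and 1 higher, with echinomycin 20 were higher and 1 lower, and muscle genes were higher with each compound.

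The compounds were also compared directly, at the single dose of each. 2ME and echinomycin are both used against HIF1, and all 9 markers were lower with 2ME than with echinomycin, each by 2-fold or more, where 21.3% of all models were called lower and 7.79% by 2-fold or more. The log2 ratio ran from -1.03 ± 0.10 (adjusted p = 3.19e-07) for ptprc to -1.89 ± 0.09 (adjusted p = 2.69e-10) for csf1r, with spi1 at -1.79 ± 0.10 (adjusted p = 1.27e-09). Against IWR-1, 8 markers were lower with 2ME (11.4% of all models) and 4 of them by 2-fold or more (3.14%), with csf1r at -1.43 ± 0.09 (adjusted p = 2.68e-08), coro1a at -1.21 ± 0.14 (adjusted p = 1.31e-05) and cebpa at -1.19 ± 0.09 (adjusted p = 1.83e-07). ptprc was not called there, -0.27 ± 0.10 (adjusted p = 0.0637), though it was without IWR-1 replicate 1 (adjusted p = 0.0449). Echinomycin exceeded IWR-1 in 7 markers (16.2% of all models), in 0 of them by 2-fold or more (3.67%), and most in ptprc, 0.77 ± 0.10 (adjusted p = 1.15e-05), rac2, 0.67 ± 0.12 (adjusted p = 0.000313), and spi1, 0.66 ± 0.10 (adjusted p = 4.99e-05). The other 2 were csf3r, 0.17 ± 0.09 (adjusted p = 0.162) with an interval of -0.03 to 0.37, and cebpa, 0.13 ± 0.09 (adjusted p = 0.269) with an interval of -0.06 to 0.32. The coro1a call in that comparison, 0.36 ± 0.13 (adjusted p = 0.0404), was lost without any one of the 3 echinomycin libraries, IWR-1 replicate 2 or IWR-1 replicate 3, at adjusted p of 0.0701 to 0.142.

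Set against 0 hpa tissue, 9 markers were higher with echinomycin and 9 with IWR-1, where 27.6% and 27.2% of all models were. By 2-fold or more it was 9 with echinomycin and 7 with IWR-1, against 8.67% and 7.63% of all models. The receptor gene csf3r was 9.02-fold higher with echinomycin and 8.03-fold higher with IWR-1. With 2ME 5 were higher (28.8% of all models) and 1 by 2-fold or more (7.34%): csf3r at 2.04 ± 0.11 (adjusted p = 1.68e-10), mpo at 0.79 ± 0.10 (adjusted p = 3.13e-06), lcp1 at 0.76 ± 0.09 (adjusted p = 1.83e-06), spi1 at 0.69 ± 0.12 (adjusted p = 8.76e-05) and csf1r at 0.58 ± 0.10 (adjusted p = 8.64e-05). For ptprc, coro1a, cebpa and rac2 the log2 ratios of 2ME over 0 hpa were 0.17 ± 0.10 (adjusted p = 0.161), 0.07 ± 0.16 (adjusted p = 0.726), -0.02 ± 0.10 (adjusted p = 0.851) and 0.26 ± 0.13 (adjusted p = 0.109). With no scaling factor ptprc (adjusted p = 0.0174) and rac2 (0.00977) were called higher there.

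Ratios of counts within a library need no scaling factor, and they show how the members shifted against each other. The ratio of csf3r to csf1r was 0.905 (0.838 to 0.943) with 2ME, 0.536 (0.494 to 0.564) with echinomycin and 0.660 (0.609 to 0.692) with IWR-1, against 0.474 (0.467 to 0.481) with DMSO and 0.334 (0.265 to 0.396) at 0 hpa (geometric mean, lowest and highest library, as for the count ratios below). It was thus highest with 2ME, and each compound lay above DMSO and DMSO above 0 hpa with no overlap. The difference in log2 ratio was 0.93 for 2ME, 0.18 for echinomycin and 0.48 for IWR-1 over DMSO, and 0.50 for DMSO over 0 hpa. Each had p = 0.1 in the two-sided exact permutation test, the smallest that 3 against 3 libraries can give, and 0.15 after adjustment over 36 such tests, so none can pass a threshold of 0.05.

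Against the general leukocyte gene ptprc, mpo stood at 3.95 (3.54 to 4.35) with 2ME, 4.33 (4.10 to 4.54) with echinomycin and 5.76 (5.16 to 6.57) with IWR-1, against 6.67 (6.02 to 7.99) with DMSO and 2.57 (2.32 to 2.81) at 0 hpa. Both 2ME and echinomycin lay below DMSO with no overlap, IWR-1 overlapped DMSO, and DMSO lay above 0 hpa. The ratio of csf3r to ptprc was 1.43 (1.26 to 1.56) with 2ME, 1.53 (1.46 to 1.59) with echinomycin and 2.32 (2.28 to 2.37) with IWR-1, against 1.29 (1.24 to 1.34) with DMSO and 0.393 (0.356 to 0.416) at 0 hpa, where 2ME overlapped DMSO and the others did not. For spi1, lcp1, coro1a and rac2 over ptprc, 2ME lay below DMSO with no overlap, by log2 differences of -0.62, -0.38, -0.67 and -0.72, whereas echinomycin overlapped DMSO in all 4. The ratio of cebpa to ptprc was 1.46 (1.24 to 1.75) with IWR-1 and 0.925 (0.847 to 1.02) with DMSO, which did not overlap; with the other compounds and at 0 hpa it overlapped DMSO. The ratio of csf1r to ptprc was 1.58 (1.51 to 1.65) with 2ME, below the 2.71 (2.62 to 2.87) with DMSO in every library, while with echinomycin it was 2.86 (2.65 to 3.12) and overlapped DMSO. With IWR-1 it was 3.52 (3.35 to 3.89), above DMSO with no overlap, as were spi1 and lcp1 over ptprc, by log2 differences of 0.25 and 0.26. These separations carry the same p of 0.1, the smallest possible in the exact permutation test.

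**Figure D4:**
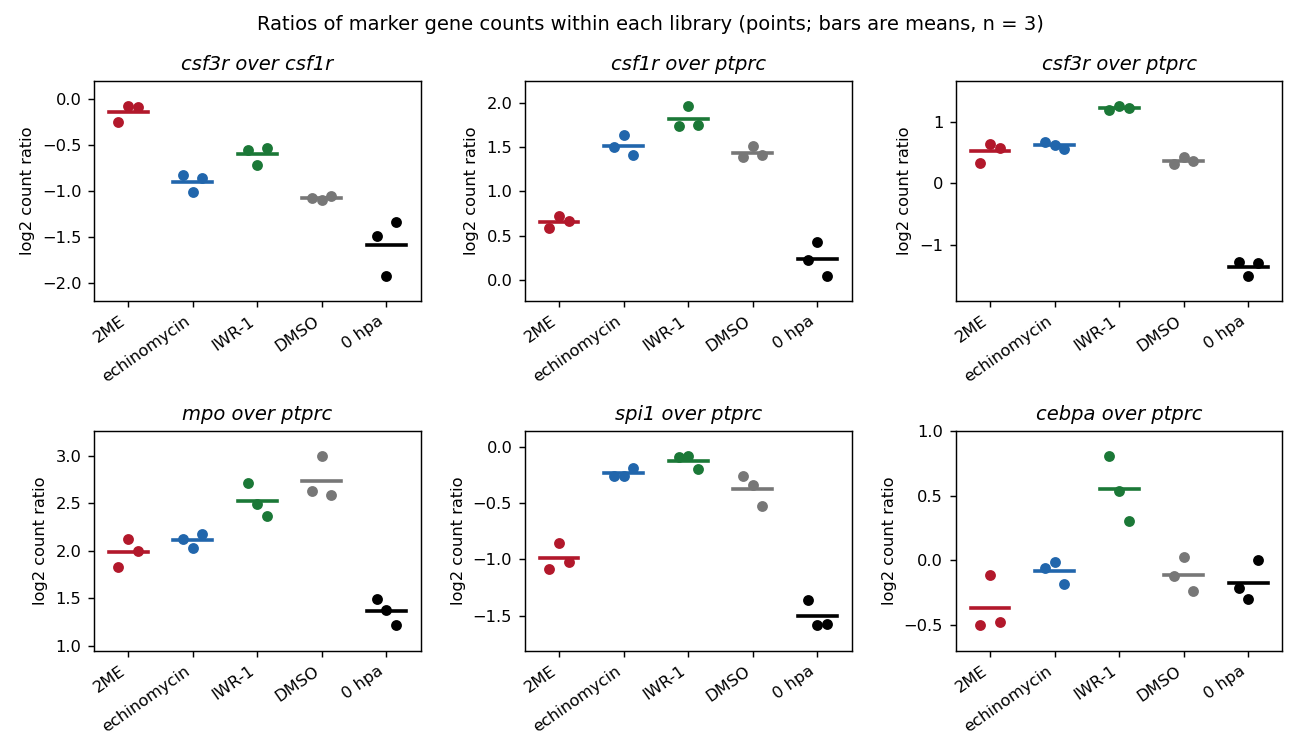
Log2 ratio of the counts of 2 marker genes (vertical axes) in each library (points) of the 5 groups, with group means as bars. The ratio of csf3r to csf1r is highest in the 2ME libraries and lowest at 0 hpa, and that of cebpa to ptprc is highest with IWR-1.

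The members were compared with each other in their pattern over the 15 libraries. Likeness was measured as the root mean square difference of log2(CPM + 0.5) centred per gene, where 0 means identical patterns. The measure takes in the size of the changes, so genes with a like order of groups can still lie far apart. The closest pair was spi1 and lcp1 (0.120), then csf1r and spi1 (0.165) and csf1r and lcp1 (0.205). The furthest was csf3r and ptprc (0.830). Both were lowest at 0 hpa and highest with echinomycin, with centred group means of -2.00 and 1.06 for csf3r and of -0.446 and 0.730 for ptprc. All these genes share the libraries, their depth and the scaling factors, and the values are descriptions with no test.

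Among 10649 other named genes with a mean of at least 5 CPM over the 15 libraries, the 10 closest to the mean pattern of the members were tcn2 (0.125), syk (0.143), plekho2 (0.145), hcls1 (0.162), ccdc88b (0.170), cybb (0.185), vav1 (0.185), fap (0.200), sla (0.201) and spib (0.204). Of these, syk, hcls1 and vav1 are on the pan-leukocyte list, cybb is on the granulocyte list and spib is on the list of transcription factors. In the same order, those lists hold 33, 18 and 24 of the 34192 gene models. They were chosen with earlier results of these data known, and the overlap was not tested. The 3 nearest to csf1r were pik3r5, ccl5 and alox5, those of csf3r slc2a6, lgals9c and adam28.2, and those of mpo cybb, fyb1 and vav1. Nearest to spi1 were alox5, syk and ccdc88b, to lcp1 syk, spib and tcn2, to rac2 arhgdib, fyb1 and gmfg, and to coro1a hcls1, gmfg and slc13a3. The genes nearest to ptprc (sash3, rgl2 and pcmtd1, 0.114 to 0.152) and to cebpa (prr15, slc13a3 and slc25a18, 0.176 to 0.217) are on none of the leukocyte lists, and neither are those nearest to csf3r. Absence from these lists does not mean that a gene is not expressed in leukocytes.

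**Figure D5:**
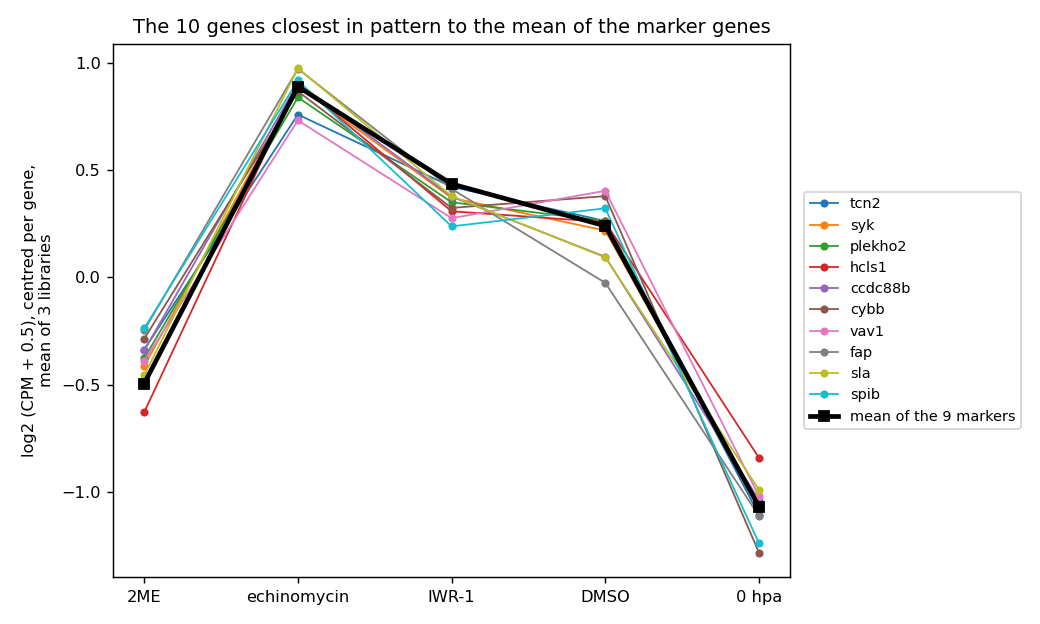
Group means of centred log2(CPM + 0.5) for the 10 genes closest in pattern to the mean of the 9 markers (black squares). All 10 lie highest with echinomycin and lowest at 0 hpa.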

How the data were processed

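The authors deposited estimated counts, TPM and effective lengths of each gene model for every library, per the file headers, and a CPM table of the series. Per the submitters' processing notes, Trim Galore 0.6.5, kallisto and edgeR were used; no version of the last 2 and no genome build is named there, so the build is not given in the sources used here. For the 9 members the deposited CPM were the estimated counts times 1 constant per library, which alone does not show whether a scaling factor is in them. For mpo with IWR-1 over DMSO, the limma fit on them gave a log2 ratio of -0.096. With no scaling factor it was -0.099 and with TMM factors -0.26, so the deposited CPM appear to carry no scaling factor. Gene names are those of the files.

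Estimated counts were rounded to whole numbers. All 15 libraries entered 1 edgeR 4.0.16 model (R 4.3.3) with a term per group, TMM factors and filterByExpr at its minimum count of 10 and total of 15. Groups were compared by the quasi-likelihood F test with 10 residual degrees of freedom before moderation, and p-values were adjusted by Benjamini-Hochberg over 18823 models per comparison. The 95% intervals use the SE and 10 degrees of freedom. The procedure was tested on simulated counts. Count ratios were compared by exact permutation (scipy 1.17.1); other steps used Python 3.11.15, pandas 2.3.3, numpy 2.4.6 and matplotlib 3.10.9.

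The members, the lists and their tests were chosen with earlier results of these data known. Of 261 list symbols, 215 were found by exact match. A list count near the share of all models called in the same direction is no result about that list. Those shares stand with the members, for IWR-1 vs DMSO in both directions and otherwise in 1. Counts of list genes in the other direction have no such share beside them and are descriptions only. The genes named are the members, up to 4 genes per list and comparison with the smallest adjusted p, and the genes of most like pattern; any other is marked as named after its values were seen. Alternatives for the log2 ratios were RLE, upper-quartile or no factors, no filter, a mean of at least 10 counts, DESeq2 1.42.0, limma 3.58.1 on the deposited CPM as log2(CPM + 1), a fit of the compared groups alone, the replicate number as a block, an offset for effective length, a 2-fold minimum and each library left out. Alternatives for the count ratios were TPM, 1 added count and each library left out. A planned search of promoter motifs was not run. Within a group, every pair of libraries differed by more than sampling noise.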

Additional observations from a re-analysis of the deposited data

How the results depend on the processing

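No alternative turned the direction of a member's call, and no count of the 9 members called fell outside 1.5 times its value except as follows. Requiring 2-fold or more left 3 members for 2ME vs DMSO, 0 for echinomycin vs DMSO, 0 for IWR-1 vs DMSO, 1 for 2ME vs 0 hpa, 4 for 2ME vs IWR-1 and 0 for echinomycin vs IWR-1. Leaving out 1 library gave 3 to 6 for IWR-1 vs DMSO, with 3 without DMSO replicate 2, IWR-1 replicate 2 or IWR-1 replicate 3. In the other comparisons the count without 1 library stayed at 9 for DMSO vs 0 hpa and at 5 for 2ME vs 0 hpa, and ranged from 7 to 8 for 2ME vs DMSO and from 7 to 9 for echinomycin vs DMSO. The IWR-1 call for rac2 also had an adjusted p of 0.0542 with DESeq2, 0.0550 with RLE factors and 0.0779 with upper-quartile factors, and that for mpo 0.0702 with the last of these. The 2ME call for ptprc had 0.0526 when only the 2ME and DMSO libraries were fitted. The limma fit on the deposited CPM, which appear to carry no scaling factor, gave 0.223 for ptprc with 2ME. The coro1a call of echinomycin vs IWR-1 had 0.0721 with no filter. Over all alternatives, the 2-fold minimum included, single member calls were lost 28 times and gained 4 times in IWR-1 vs DMSO, lost 10 and gained 3 times in echinomycin vs DMSO, lost 4 and gained 4 times in 2ME vs 0 hpa, and lost 4 and gained 2 times in 2ME vs IWR-1. They were lost 15 times in echinomycin vs IWR-1, 11 times in 2ME vs DMSO, 2 times in DMSO vs 0 hpa and 2 times in IWR-1 vs 0 hpa. The causes were not tested. Members' counts as low as 48 for coro1a limit its precision. With the replicate number as a block, 9 members were called in 2ME vs IWR-1 in place of 8, ptprc being added at an adjusted p of 0.0436, and no other member call changed. The numbers are not known to pair samples. Same-numbered libraries of different groups had correlations of their deviations from -0.198 to 0.148 (median 0.0014), with 4 of 30 over 0.1. For libraries with other numbers they ran from -0.160 to 0.192 (median 0.016), with 10 of 60 over 0.1. The best match among the 3 libraries of another group had the same number in 18 of 60 cases. All alternatives of the count ratios kept their direction or stayed within the spread of the libraries.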

Other observations

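Subunits of the phagocyte NADPH oxidase, which makes superoxide together with Rac2, were looked at after their values were seen. The genes cybb, cyba, ncf1 and ncf4 were each higher with DMSO than at 0 hpa, with log2 ratios from 1.76 (adjusted p = 4.97e-09) for cybb to 2.27 (adjusted p = 6.71e-06) for ncf4. The cytosolic subunit gene ncf1 had 6.90 ± 1.52 CPM with 2ME, 14.3 ± 1.90 CPM with echinomycin and 9.70 ± 0.727 CPM with IWR-1, against 8.08 ± 0.670 CPM with DMSO and 1.96 ± 0.352 CPM at 0 hpa. It rose with echinomycin over DMSO, 0.82 (adjusted p = 0.000275), and the test did not call it with 2ME, -0.23 (adjusted p = 0.290). With echinomycin the membrane subunit gene cybb rose, 0.50 (adjusted p = 0.00143). With 2ME cybb fell, at a log2 ratio of -0.69 (adjusted p = 0.000462), and so did its partner cyba, -0.35 (adjusted p = 0.0177), whose call was lost with no scaling factor (adjusted p = 0.122). The receptor gene trem2 and its signalling partner tyrobp, also named after their values were seen, were both higher with DMSO than at 0 hpa, with log2 ratios of 3.83 (adjusted p = 1.16e-08) and 2.98 (adjusted p = 7.31e-09). Both are on the macrophage list, of which 9 of 20 tested genes rose and 9 fell in that comparison. trem2 had 1.45 ± 0.193 CPM with 2ME, 4.75 ± 0.893 CPM with echinomycin and 3.63 ± 0.488 CPM with IWR-1, against 4.23 ± 0.979 CPM with DMSO and 0.294 ± 0.102 CPM at 0 hpa. tyrobp had 5.11 ± 0.700 CPM with 2ME, 16.7 ± 1.49 CPM with echinomycin and 11.9 ± 0.699 CPM with IWR-1, against 9.57 ± 0.506 CPM with DMSO and 1.19 ± 0.651 CPM at 0 hpa. With 2ME both fell, trem2 at a log2 ratio of -1.55 (adjusted p = 0.000107) and tyrobp at -0.91 (adjusted p = 0.00133), and with echinomycin tyrobp rose, 0.80 (adjusted p = 0.000643), while trem2 was not called, 0.16 (adjusted p = 0.535).

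Of 7 tested mast cell and thrombocyte genes, 2 were higher and 4 lower with DMSO than at 0 hpa, among them kit, the stem cell factor receptor that pigment cells also use, at 1.22 ± 0.08, and the platelet glycoprotein gene gp1bb at -3.08 ± 0.39. The 2 rises were near the 32.2% of all models called higher there, so they are no result about this list. With echinomycin 3 rose and 1 fell against DMSO, where 24.6% of all models were called higher, and by RLE factors 3 rose and 0 fell. The histidine decarboxylase gene hdc, which makes histamine, had 0.592 ± 0.213 CPM with 2ME, 1.50 ± 0.368 CPM with echinomycin and 0.307 ± 0.198 CPM with IWR-1, against 0.238 ± 0.149 CPM with DMSO and 0.390 ± 0.210 CPM at 0 hpa. Its call with echinomycin over DMSO had an adjusted p of 0.000419. As its mean was highest with echinomycin, hdc may have passed the filter on low counts only through those libraries. The hdc call is thus a description only. With 2ME 0 rose and 1 fell, thbs1 at -0.40 ± 0.05, where 16.5% of all models were called lower. With IWR-1 2 rose and 2 fell, where 19.9% of all models were called higher and 22.4% lower. With so few genes tested, these counts are descriptions only. These genes were tested with edgeR's quasi-likelihood test and Benjamini-Hochberg adjustment like all others.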
